A study of Rattus norvegicus with 38 samples.

Results

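Kidneys of 18 rats are described here, 10 given L-NAME alone and 8 given vehicle, out of 38 rats studied as a model of glomerular and tubular damage. Animals were chosen by treatment label alone, and no measured value entered the choice. L-NAME was dosed at 20 mg/kg per day, and kidneys were taken after 7 weeks of treatment. The remaining animals, used only where stated, were 10 given anti-Fx1A at 2.5 mL/kg and 10 given anti-Fx1A at 2.0 mL/kg together with the same dose of L-NAME, here called the combination. Anti-Fx1A antibodies bind antigens of the proximal tubule brush border and of podocytes, and are used in rats to induce membranous nephropathy. The sources used here name no strain, sex, age, route or make-up of the vehicle. Animals carry their number in the series (vehicle 1 to 8, L-NAME 19 to 28). This numbering follows the groups, so that any effect of processing order and the effect of L-NAME cannot be told apart. Nothing in the labels says that the animals were housed or handled separately, and p-values measure the spread between these animals.

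Nitric oxide synthases make nitric oxide from arginine. In the vessel wall the gas activates soluble guanylate cyclase in smooth muscle and relaxes it, and in the kidney it takes part in the control of blood flow, renin release and sodium handling. L-NAME is an arginine analogue that blocks these enzymes, and prolonged dosing of rats is a common model of hypertension with vascular and glomerular damage.

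Expression was measured by sequencing the 3' ends of transcripts of whole kidney RNA, and the deposited values are log2 expression scaled by library size and variance-stabilised. Genes are known by Ensembl rat identifiers only, and 0 of the 30207 identifiers could be paired with a symbol in the tables used here. The labelled tissue was therefore not checked against marker genes, and the response is described by numbers, sizes, animals and 4 genes under their identifiers. The 18 libraries held 4120902 to 7728848 reads. Vehicle 1 and L-NAME 25 stood apart from their groups, and counts without them are given with the animals' scores. In whole kidney RNA, a smaller number of cells of a type and less RNA per cell cannot be told apart.

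The kidney transcriptome changed in both directions with L-NAME, in many genes. Of 12599 genes tested, 14.1% were called, with 996 higher (7.91% of those tested) and 784 lower (6.22%) at an adjusted p under 0.05 (limma, Benjamini-Hochberg). On the stabilised scale, the middle 50% of the higher genes lay between 0.35 and 0.59 log2 units above vehicle, and that of the lower genes between 0.31 and 0.51 units below (-0.31 and -0.51). The median SE of a called fold change was 0.11 log2 units among the higher genes and 0.10 among the lower. Changes under 0.25 log2 units made up 23 calls among higher genes and 64 among lower genes. A change of at least 1.5-fold on this scale beside the adjusted p was met by 374 genes, 2.97% of those tested, 249 of them higher and 125 lower. The stabilised scale is compressed at low counts, and by the ratio of mean reads corrected for depth 574 higher and 246 lower genes among the calls differed by at least 1.5-fold. The median ratio was 1.56 among the higher and 0.716 among the lower genes. The smallest adjusted p was 2.99e-06 among the higher and 2.23e-05 among the lower genes.

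Few genes separated all treated from all control animals. In 157 genes (1.25% of those tested) the values of the 10 L-NAME and 8 vehicle animals did not overlap, 87 with all L-NAME animals above (0.691%) and 70 with all below (0.556%), and all of these were called. Counting these, 366 of the 996 higher genes had at least 8 of 10 L-NAME animals above the highest vehicle animal, and 281 of the 784 lower genes had at least 8 below the lowest. In 731 higher and 594 lower genes, every L-NAME animal lay on the called side of the vehicle mean. The ranges of the groups overlapped in the rest.

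The share of genes called grew with abundance, in both directions. Genes were divided into 5 bins of equal size by their mean over all 38 animals, with median reads per library from 19.9 in the lowest bin to 701 in the highest. Of the genes in the lowest bin 5.24% were called higher and 1.55% lower, and in the highest bin 11.3% and 11.1%. Higher calls thus outnumbered lower ones among scarce genes (132 against 39), and their numbers were near each other among abundant genes (284 against 280). The median fold change over all genes of a bin moved from 0.030 log2 units in the lowest bin to -0.051 in the highest. The median SE was 0.11 in both. The compression of the scale makes changes of scarce genes look smaller. Both the filter and the bins use the mean over all 38 animals, more of which were given L-NAME than vehicle. Scarce genes that rise with L-NAME can thus enter more easily than those that fall, and the effect of this was not tested. With the filter at 2 log2 units above the lowest value, 841 genes were called higher and 793 lower. Without a filter the counts were 849 and 615.

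**Figure D1:**
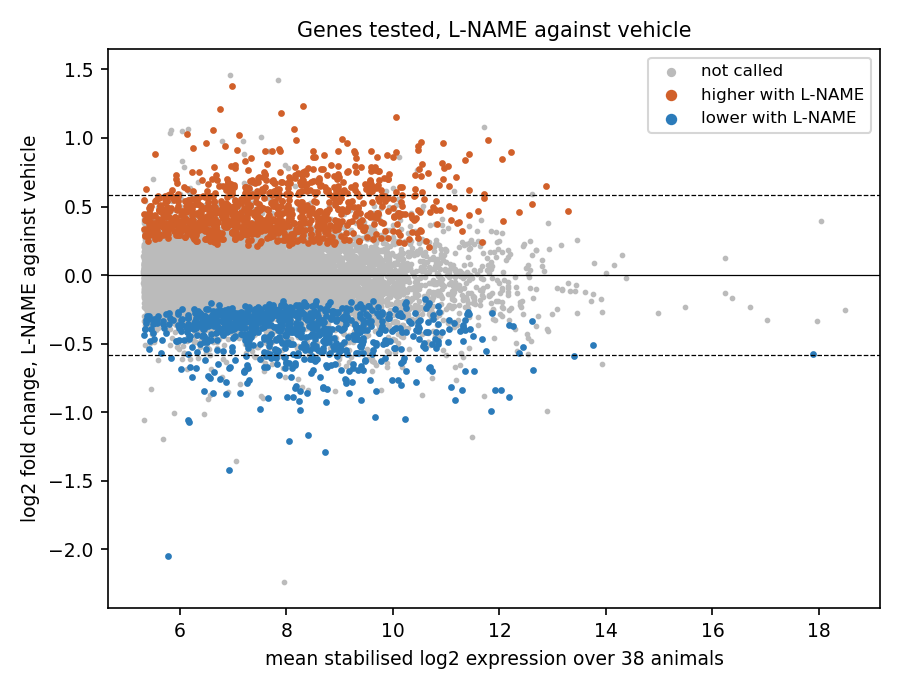
Each point is one of the 12599 genes tested, with its mean stabilised log2 expression over 38 animals on the x axis and its log2 fold change of L-NAME (n = 10) against vehicle (n = 8) on the y axis. Coloured points are the 996 higher and 784 lower genes at a limma adjusted p under 0.05, and dashed lines mark 1.5-fold. Lower calls are sparse at the left, where 39 genes of the lowest abundance bin were called lower.

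Fold changes below 0 were found in 6605 of the 12599 genes tested (52.4%), and among the most abundant genes the share was larger. Of the 100 most abundant genes 67 had a fold change below 0, with 5 called higher and 10 called lower, and of the 500 most abundant 310 had, with 44 called higher (8.8%) and 61 called lower (12.2%), beside 7.91% and 6.22% of all genes tested. These shares are a description without a test. Within the 10 most abundant, 1 gene was called lower (limma adjusted p = 0.0488) and 0 higher. The fold changes of those 10 ranged from -0.58 to 0.39 log2 units. The called genes together changed the make-up of the libraries. The 784 lower genes took 14.2 ± 0.802% of the reads with vehicle (SD, n = 8) and 10.4 ± 0.710% with L-NAME (n = 10). The 996 higher genes took 4.57 ± 0.455% and 7.33 ± 1.31%. These shares restate the genes chosen by the same comparison, and the group ranges did not overlap for either list, with 12.7 to 15.2% against 9.24 to 11.4% for the lower genes and 4.06 to 5.34% against 5.81 to 10.2% for the higher.

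The genes with the largest changes among those called were ENSRNOG00000028008 and ENSRNOG00000070981, which rose, and ENSRNOG00000066692 and ENSRNOG00000063068, which fell. They were picked for the size of their change between these animals, so that their fold changes tend to be inflated. The next genes in the order, the third in each direction, had 1.21 and -1.29 log2 units. What these genes encode is not stated in the files.

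ENSRNOG00000028008 was scarce with vehicle and had the largest rise among the called genes on the stabilised scale. Its stabilised log2 value ranged from 5.07 over a median of 5.75 to 6.48 with vehicle (5 to 57 reads) and from 6.33 over 7.13 to 8.01 with L-NAME (46 to 274 reads). The ranges overlapped slightly: 8 of 10 L-NAME animals lay above all vehicle animals, and L-NAME 21 and 24 lay within the vehicle range. The log2 fold change was 1.38 (SE 0.26, limma adjusted p = 0.00036). On the linear scale of reads corrected for depth, which is not compressed, the means were 25.5 ± 18.8 (SD, n = 8) and 113 ± 57.3 (n = 10), a ratio of 4.45. Its mean log2 value was 6.58 ± 0.53 with anti-Fx1A alone (n = 10) and 8.20 ± 0.60 with the combination (n = 10). The combination exceeded anti-Fx1A by 1.62 (SE 0.24, limma adjusted p = 7.01e-05), in animals that do not enter the gene's fold change against vehicle. These animals share the fit and its estimate of spread with that comparison, and their antiserum doses differ.

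ENSRNOG00000070981 differed several-fold between L-NAME animals. It ranged from 6.95 over a median of 7.21 to 8.30 with vehicle (67 to 276 reads) and from 7.78 over 8.67 to 10.02 with L-NAME (170 to 1235 reads). Vehicle 1 and vehicle 8 stood above the other vehicles at 8.30 and 8.01, and 6 of 10 L-NAME animals lay above vehicle 1. L-NAME 25 was the highest at 10.02. The log2 fold change was 1.24 (SE 0.26, limma adjusted p = 0.0016), and the linear ratio was 2.87. With anti-Fx1A alone it was 7.88 ± 0.54 (SD, n = 10) and with the combination 9.11 ± 0.55 (n = 10), a difference of 1.23 (SE 0.25, limma adjusted p = 0.00146).

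ENSRNOG00000066692 was read in some animals of every group and not in others. With vehicle it had 0 reads in vehicle 1 and 57 to 297 reads in the other 7 animals. With L-NAME it had 0 reads in 6 of 10 animals and 29 to 115 reads in the remaining 4, so no L-NAME animal lay below the vehicle range. An absence of reads also occurred in 4 of 10 anti-Fx1A and 5 of 10 combination animals. The log2 fold change was -2.05 (SE 0.57, limma adjusted p = 0.0133), and it was not called by a test on the recovered reads with voom (-4.61, adjusted p = 0.0727, within 0.00177 to 0.0727 over 28 fits). Adding L-NAME to anti-Fx1A gave -0.83 (SE 0.54, limma adjusted p = 0.271), which did not pass.

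ENSRNOG00000063068 fell in most L-NAME animals. It ranged from 7.01 over a median of 7.90 to 8.46 with vehicle (92 to 299 reads) and from 4.32, the value of 0 reads, over 6.70 to 7.50 with L-NAME (0 to 143 reads). L-NAME 25 and 26 had 0 reads, L-NAME 20 and 24 overlapped the vehicle range, and 8 of 10 lay below it. The log2 fold change was -1.42 (SE 0.41, limma adjusted p = 0.0164), and the linear ratio of the means was 0.358. With anti-Fx1A alone it ranged from 6.40 over 7.44 to 8.07, and with the combination from 4.32 over 6.69 to 7.55, a difference of means of -1.10 (SE 0.38, limma adjusted p = 0.0409).

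**Figure D2:**
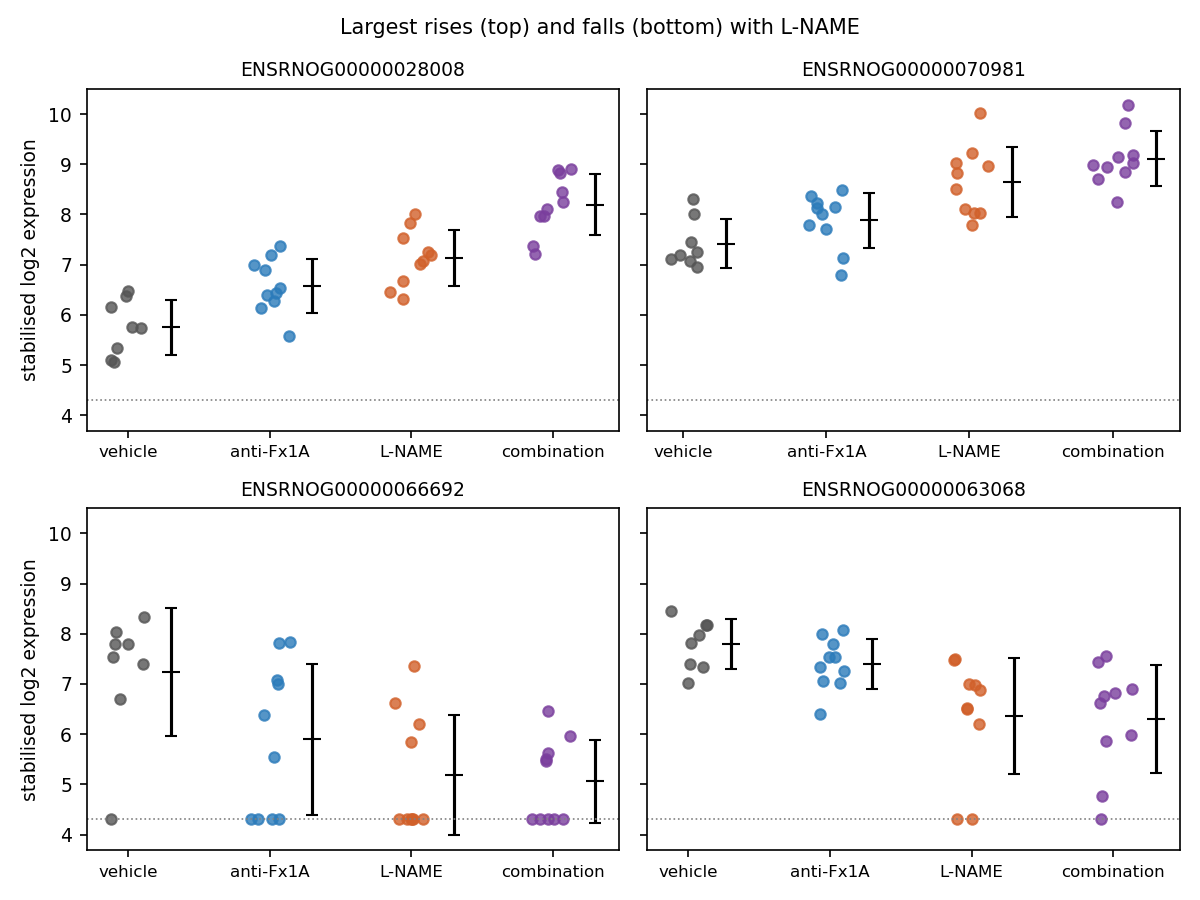
Stabilised log2 expression of 4 genes in every animal (points), with mean and SD beside them, for vehicle (n = 8), anti-Fx1A, L-NAME and combination (n = 10 each). The dotted line is the value of 0 reads, where 6 L-NAME animals sit for ENSRNOG00000066692 and 2 for ENSRNOG00000063068.

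Genes with a pattern of this kind were rare. In the whole table, 20 genes had 0 reads in at least 3 animals and at least 100 reads corrected for depth in at least 3 others. Of these, 13 showed both states within the vehicle group, 18 were tested, and 2 were called lower and 0 higher with L-NAME. That is 11.1% of the 18. The 2 called lower were ENSRNOG00000066692 and ENSRNOG00000063068, the genes already picked above for their large falls. Of all genes tested 14.1% were called, and because of this choice nothing is read from the difference between the shares.

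The L-NAME animals differed in how far they lay along a direction of change taken from other groups. A score was computed for each animal from 2428 genes called between the combination and anti-Fx1A groups (1196 higher and 1232 lower), groups that contribute no animal to the present comparison and that also differ in the dose of antiserum. It measures how far the animal's values lay from vehicle along those fold changes. Its 0 is the vehicle mean, and its 1 is the mean response to L-NAME in the presence of anti-Fx1A. The genes were chosen for their difference between those groups, which inflates that response and tends to place L-NAME animals below 1. A score under 1 is therefore not read as a weaker response to L-NAME alone. Each vehicle animal was set against the other 7. The score is given as a description, without a test, and animals not given L-NAME also vary along it. Over the genes called higher with L-NAME, the median difference from vehicle was 0.30 to 0.70 log2 units in L-NAME animals. In vehicles it was -0.13 to 0.19. Over the lower genes it was -0.59 to -0.25 in L-NAME animals and -0.084 to 0.13 in vehicles. Those genes were chosen on the same animals, so these ranges restate the calls.

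All 10 L-NAME animals scored above 0, from 0.136 over a median of 0.511 to 1.65, with a mean of 0.643 ± 0.496 (SD, n = 10). The lower scores were 0.136 for L-NAME 22, 0.193 for L-NAME 21, 0.238 for L-NAME 19, 0.299 for L-NAME 20 and 0.355 for L-NAME 24. The other L-NAME animals reached 0.666 (L-NAME 23), 0.782 (L-NAME 28), 0.987 (L-NAME 27), 1.12 (L-NAME 26) and 1.65 (L-NAME 25). Of the vehicles, 7 lay between -0.308 and 0.157, and vehicle 1 reached 0.659, above those 5 L-NAME animals. L-NAME 22 was the only L-NAME animal below vehicle 2, the second highest vehicle. With vehicle 1 left out of the reference, the scores of the L-NAME animals ran from 0.218 to 1.74. In L-NAME 25 and 26, 95.8% of the 2428 genes differed from vehicle in the same direction as in those other groups, and in L-NAME 22 59.0% did. The vehicles ran from 29.6 to 71.7% on this measure, with vehicle 1, the highest, above L-NAME 19, 20, 21 and 22.

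**Figure D3:**
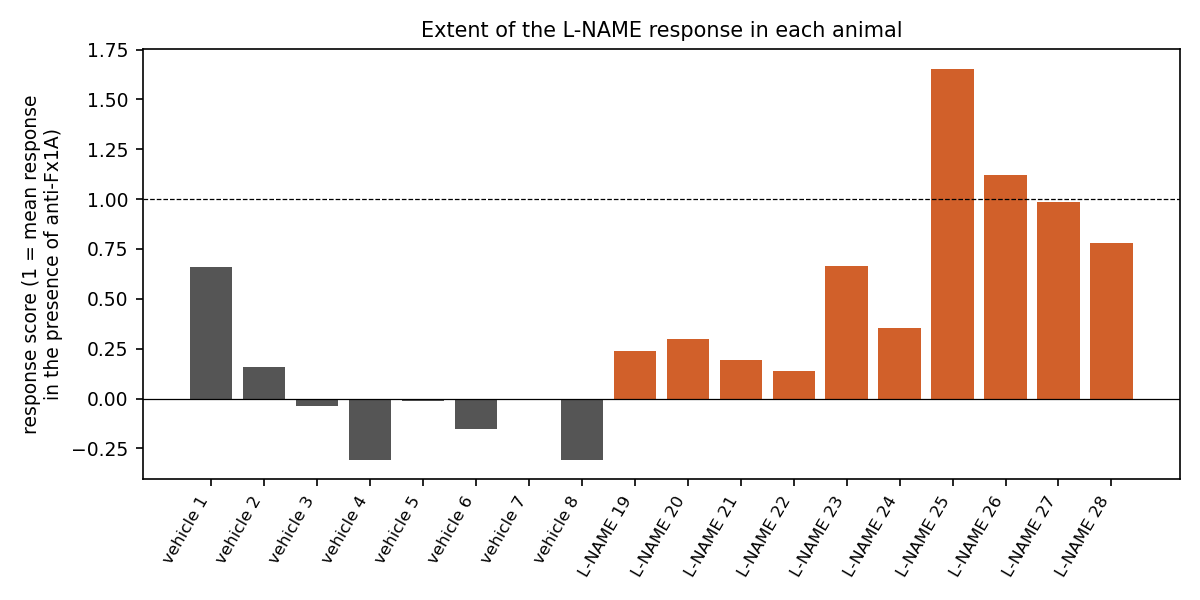
Response score of each of 8 vehicle (grey) and 10 L-NAME animals (orange), from genes called between the combination and anti-Fx1A groups. The vehicle mean is 0, and the dashed line at 1 is the mean response to L-NAME in the presence of anti-Fx1A. That response is inflated by the choice of genes on those groups. L-NAME 25 is the highest at 1.65 and vehicle 1 overlaps the L-NAME animals at 0.659.

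Vehicle 1 and L-NAME 25 were also the libraries farthest from their groups. Their root mean square distance from the mean of the rest of their group was 0.486 and 0.515 log2 units per gene, where the other vehicles lay at 0.191 to 0.263 and the other L-NAME animals at 0.228 to 0.301. They had the lowest library weights of their groups, 0.279 and 0.294. The number of calls moved with each of them. Without vehicle 1, 1069 genes were higher and 891 lower, and without L-NAME 25, 792 and 590 (limma, adjusted p under 0.05). Of the original calls, 911 and 621 were made without vehicle 1, and 772 and 567 without L-NAME 25. With the animal of lowest weight left out of each of the 4 groups, 967 were higher and 765 lower, of which 867 and 599 were among the original calls. When each of the 18 animals was left out in turn, 664 higher and 434 lower genes were called in every fit.

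Within the L-NAME group the score was set against 3 measures of the libraries. For depth Pearson's r was 0.467 (permutation p = 0.177, adjusted 0.531) and Spearman's rho 0.612 (permutation p = 0.0670, adjusted 0.201, n = 10), and r fell to 0.220 without the 2 animals farthest from the median depth. For the number of genes detected r was 0.110 (permutation p = 0.762, adjusted 0.762) and rho 0.0061 (permutation p = 1, adjusted 1), with r = 0.0785 without 2 animals. For the share of reads taken by the 10 most abundant genes r was -0.127 (permutation p = 0.736, adjusted 0.762) and rho 0.139 (permutation p = 0.707, adjusted 1), with r = 0.565 without 2 animals. None of the 3 relations passed, at a number of animals that allows only strong relations to be detected.

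The larger a change with L-NAME alone, the more often the gene was called when L-NAME was added to anti-Fx1A, a comparison of other animals in which 9.49% of all genes tested were called higher and 9.78% lower. The antiserum dose differs between its groups. Both comparisons come from the same fit, with the same filter and the same estimate of spread for each gene, which can favour the same genes. How much this adds to the shares was not tested. Of the genes higher by at least 1.5-fold with L-NAME alone, 188 of 249 (75.5%) were called higher there, against 232 of 504 (46.0%) at 0.35 log2 units to 1.5-fold and 86 of 243 (35.4%) below that. Of the lower genes, 84 of 125 (67.2%), 153 of 348 (44.0%) and 68 of 311 (21.9%) were called lower. The direction was shared by 246 of the 249 and by 122 of the 125 genes changed at least 1.5-fold. Among the 87 and 70 genes whose groups did not overlap, 61 and 42 were called in the same direction. Of the genes that at least doubled 7 of 9 were called, and of those that at least halved 8 of 9.

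**Figure D4:**
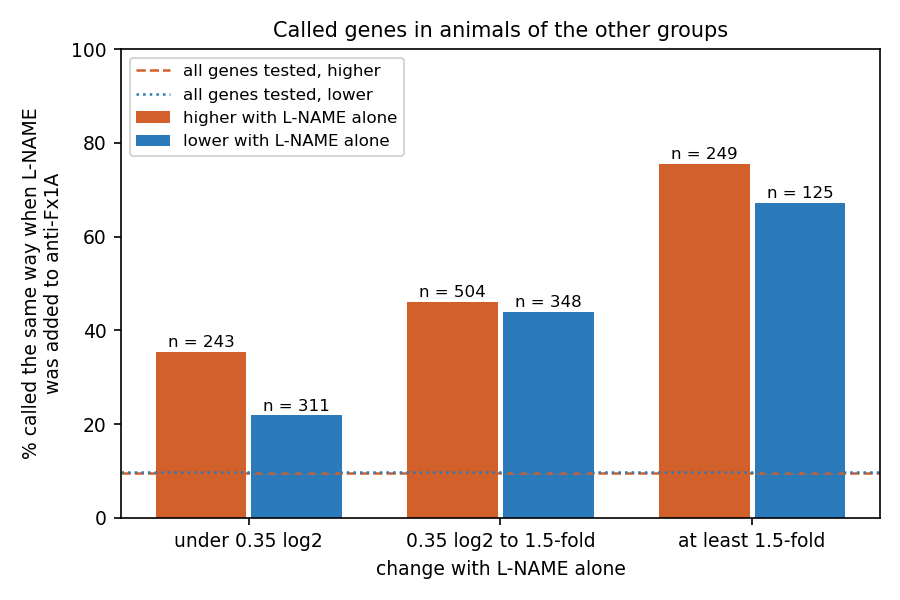
Percent of genes called for L-NAME alone that were called in the same direction between combination and anti-Fx1A animals, by the size of their change with L-NAME alone on the stabilised scale. Bars give higher (orange) and lower (blue) genes with their number, and the lines give the share over all genes tested (9.49% and 9.78%). Each step in size raises the share, to 75.5% and 67.2%.

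Whether the response to L-NAME differed in the presence of anti-Fx1A was examined by the interaction. The antiserum dose also differed between the combination and anti-Fx1A groups. The interaction cannot tell this dose difference apart from a changed response to L-NAME. The interaction called 0 of 12599 genes (0%), with a smallest adjusted p of 0.0505 (limma). An unadjusted p under 0.05 was found for 1102 genes, where 630 would on average by chance. Voom on the recovered reads also called 0, with 1050 at an unadjusted p under 0.05. The count was 37 with library weights, and it rose from 0 to 15 without anti-Fx1A 10, 6 without L-NAME 25, 5 without L-NAME 26, 3 without combination 32, 2 without anti-Fx1A 11, L-NAME 21 or combination 29, and 1 without vehicle 7 or 8. The median SE of the interaction was 0.15 log2 units. The estimate ± 2 SE stayed within 1.5-fold of no difference in 9402 of the 12599 genes tested (74.6%), 655 of the 996 higher genes and 538 of the 784 lower ones. In the others the interval reached beyond 1.5-fold. The median interaction was -0.16 log2 units in the higher and 0.16 in the lower genes, which were chosen on a difference that enters the interaction, so nothing is read from these medians or shares.

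L-NAME was also compared directly with anti-Fx1A alone, which tests where the responses to the single treatments differed. The direct comparison called 48 genes (0.381% of those tested), 17 higher (0.135%) and 31 lower (0.246%) with L-NAME (limma, adjusted p under 0.05). Of these, 3 higher and 16 lower genes differed by at least 1.5-fold. Among the 996 genes higher than vehicle, 16 (1.61%) were also called higher than anti-Fx1A, and among the 784 lower genes 8 (1.02%) were called lower. Their median difference from anti-Fx1A was 0.20 and -0.17 log2 units, beside 0.45 and -0.38 from vehicle. These genes were chosen on the difference from vehicle, which inflates it, so the medians are a description only. At an unadjusted p under 0.05 there were 1389 genes, where 630 would on average by chance. The 4 genes described above were not among the calls: ENSRNOG00000028008 differed by 0.55 (adjusted p = 0.384), ENSRNOG00000070981 by 0.77 (0.215), ENSRNOG00000066692 by -0.70 (0.663) and ENSRNOG00000063068 by -1.03 (0.298). The count of 48 depended on single animals and fell to 20 without L-NAME 25, 21 without L-NAME 27, 25 without L-NAME 23, 26 without anti-Fx1A 9, 27 without L-NAME 26, 29 without anti-Fx1A 14 or 17 and 31 without L-NAME 28. It was 22 when only these groups were fitted.

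More genes were read in L-NAME kidneys at a similar depth. At least 1 read was found for 16955 ± 236 genes with L-NAME (SD, n = 10) and 16550 ± 183 with vehicle (n = 8), a difference of 405 genes (two-sided exact permutation test, p = 0.00181, adjusted over 4 measures 0.00722). The counts ran from 16322 over 16548 to 16889 with vehicle and from 16556 over 16995 to 17329 with L-NAME, and 7 of 10 L-NAME animals lay above all vehicles. Depth was 5873870 ± 786531 and 5736480 ± 1042440 reads (exact permutation p = 0.756, adjusted 0.756). With every library thinned to the 4120902 reads of the shallowest, 16560 ± 240 and 16207 ± 116 genes were expected to be read, a difference of 353 (exact permutation p = 0.00219, adjusted 0.00878). Counting genes with at least 10 reads gave 12809 ± 269 and 12468 ± 375, and this difference did not pass (exact permutation p = 0.0393, adjusted 0.157). No gene was read in all animals of one group and in 0 of the other. In the remaining groups, genes with at least 1 read ran from 16478 to 17283 with anti-Fx1A alone and from 16545 to 17343 with the combination. Those groups were not tested against vehicle on this measure.

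**Figure D5:**
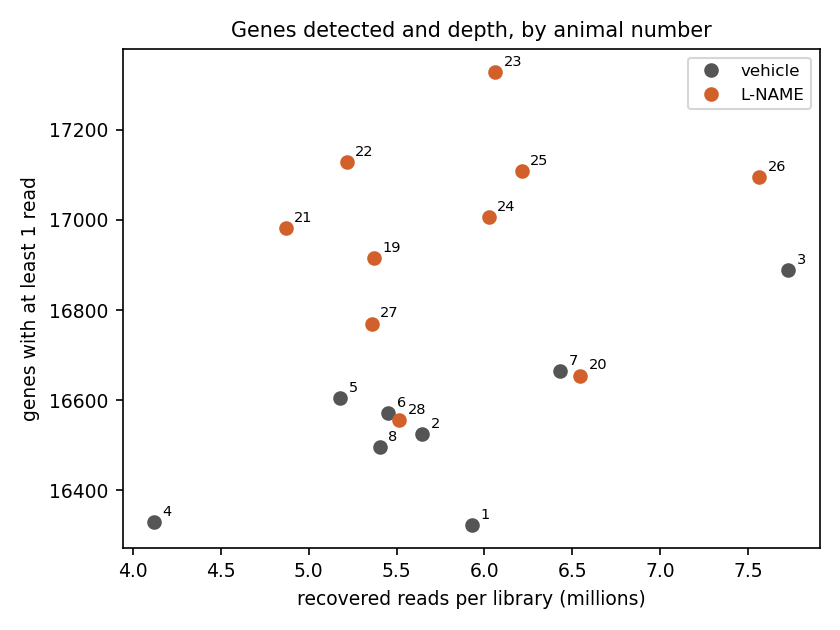
Genes with at least 1 read against the number of recovered reads for the vehicle (grey, n = 8) and L-NAME (orange, n = 10) libraries, labelled with the animal number. Of the L-NAME libraries 7 of 10 exceed the highest vehicle count of 16889, while L-NAME 20, 27 and 28 lie below it.

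The share of reads taken by the 10 most abundant genes had an SD of 4.74 percentage points among L-NAME animals and 1.45 among vehicles, and of 7.30 among anti-Fx1A and 5.09 among combination animals. The difference in spread was not tested. The lowest share was 28.1% with vehicle and 21.9% with L-NAME, the highest of the 18 was 34.8% with L-NAME, and 4 of 10 animals lay below and 3 above the vehicle range. The means of 30.4 ± 1.45% (SD, n = 8) and 28.5 ± 4.74% (n = 10) did not differ beyond this spread (exact permutation p = 0.306, adjusted 0.612). With this share as a covariate 1114 genes were called higher and 894 lower, against 996 and 784 without it. The median SD per gene over all genes tested was 0.22 log2 units with vehicle and 0.23 with L-NAME, and 52.5% of the genes had the larger SD with L-NAME. The SD with L-NAME was over 2 times that with vehicle in 939 genes and under 0.5 times in 440, and its median ratio was 1.14 among the genes called higher and 1.08 among those called lower.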

How the data were processed

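Per the labels' protocols, a QuantSeq FWD kit, which reads the 3' ends of mRNA, was used on 500 ng of total kidney RNA. Salmon 1.4.0, edgeR 3.40.2 and DESeq2 are named in the submitters' processing notes, without role or order, and no genome build or annotation was given. Values in the deposited table are on a log2 scale, scaled for library size and stabilised in variance by the authors, as the table's name and values show. Its lowest value, 4.32, stands for 0 reads. Inverting the stabilising curve gave whole reads within 0.05 for all values of up to 10000 reads in every library (100%).

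Genes were tested where their mean exceeded the lowest value by 1 log2 unit or more (12599 of 30207), with limma 3.58.1 in R 4.3.3. The 4 group means were fitted in one model of 38 animals, with trend and robust estimation and Benjamini-Hochberg adjustment at 0.05. A run of the fit on simulated data was also made, and since its outcome is not given here, nothing is read from it. Library measures were compared by two-sided exact permutation tests over 43758 arrangements, and relations within L-NAME animals by 100000 permutations. No 2 of the 18 libraries were alike within sampling noise (of 153 pairs, the closest had a chi-square of 4.11 per degree of freedom). No use of molecular identifiers is stated, so reads may not be independent molecules.

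The labels name no batch or litter. The comparisons, lists and rules were chosen with earlier results of these data known. Named genes were to be taken by symbol, and since 0 identifiers had one, the 2 largest rises and 2 largest falls among called genes were taken. The gene lists, marker lists and promoter letters that had been chosen by symbol were not run, and no sequence could be assigned to an identifier. The alternatives are given in the closing section. The response score, the thinned gene counts, the distances to the group mean, the size classes and the genes with reads in some animals and not in others were chosen after seeing the data.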

Additional observations from a re-analysis of the deposited data

Results flagged for a closer look

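Values that stood apart from the rest of their group by Dixon's criterion were found in 5 of 38 sets of values tested. All of them belong to vehicle 1 or L-NAME 25. The sets share animals and related measures, so their number is not set against a share given by chance. Vehicle 1 had the largest distance from its group at 0.486 log2 units per gene and the highest vehicle value on the leading component of the 18 animals, 24.7. L-NAME 25 had the largest distance in its group at 0.515 and the highest value on the same component, 57.4. The gene ENSRNOG00000066692 stood at 4.32, the value of 0 reads, in vehicle 1, while the other vehicles had at least 57 reads.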

How the results depend on the processing

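The 996 higher and 784 lower genes for L-NAME against vehicle, 1780 in all, stayed within 1.5 times of these counts under other scalings, filters, variance models, library weights, a fit of only the groups compared, voom and the covariate, and 0 of the calls changed sign in any of these fits. A threshold of 1.5-fold on the stabilised scale left 374 (249 higher and 125 lower), and on the linear scale, chosen after seeing the data, 820 (574 and 246). On the stabilised scale it left 19 for L-NAME against anti-Fx1A and 492 for L-NAME added to anti-Fx1A. With each animal left out in turn the counts ran from 1382 to 1960 for L-NAME against vehicle (792 to 1069 higher, 590 to 891 lower), from 20 to 61 against anti-Fx1A, from 1668 to 2816 for L-NAME added to anti-Fx1A and from 0 to 15 for the interaction.

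The 48 calls against anti-Fx1A became 27 without a filter on low values, where 22198 genes were tested, 22 with only the groups compared and 85 with a covariate for the read share of the 10 leading genes. The interaction called 3 genes with the stricter filter, 37 with library weights, 4 with that covariate and 23 without the animal of lowest weight in each group. The cause was not tested. The difference in genes detected did not pass at a minimum of 10 reads (341 genes, adjusted exact permutation p = 0.157). Over the alternatives the adjusted p ran from 0.00022 to 0.00192 for ENSRNOG00000028008, 0.000215 to 0.00628 for ENSRNOG00000070981 and 0.00971 to 0.0399 for ENSRNOG00000063068 (limma). The covariate and the fit without animals of lowest weight were chosen after seeing the data. No paired analysis was possible because each animal has a number of its own and the groups share none.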
